A study of Rattus norvegicus with 4 samples.

Results

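The kinesins are the motor proteins that carry cargo along microtubules, and 33 of their genes were measured after Cmtr1 knockdown in primary neurons of the rat cortex. The genes were taken by name, as probes labelled Kif followed by a digit, or Klc1 or Klc2. A probe had to be well above background, by the scanner software's own mark, on at least 2 of the 4 arrays, and a gene was read from its brightest probe. By name, 50 probes of 34 genes matched, and 49 probes of 33 genes were kept, out of 30090 genes measured in all. Kif2b was left out, with signals of 3.77 and 2.06 in shCM1 and 1.91 and 3.06 in shCTL and no array above background. Kif12 was just inside the limit, with signals of 7.57 and 9.70 in shCM1 and 8.93 and 7.34 in shCTL, and was well above background on replicate 2 of each group. The other 32 genes were well above background on all 4 arrays. The probes for Klc2 and Kif17 carry a transcript accession in place of a symbol and so fall outside the 33. Their values are given beside the members and are not counted with them.

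The neurons came from cortices of Sprague Dawley rat embryos of both sexes at stage E18.5. They were infected with lentivirus on day 2 in vitro and harvested on day 7. The shCM1 group received an shRNA against Cmtr1, which encodes the methyltransferase that modifies the sugar of the nucleotide next to the mRNA cap, and the shCTL group received a control shRNA. Both groups thus share the infection and the culture. Each group held 2 arrays, and the series' design states 2 independent experiments. The sample titles write si where the shRNA field writes sh. The labels name 1 shRNA against Cmtr1 and its sequence is not given in these sources, so effects of that shRNA on other transcripts cannot be told apart from loss of Cmtr1.

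A kinesin heavy chain joins a motor domain, which hydrolyses ATP and steps along the microtubule, to a coiled-coil stalk and a tail that binds cargo, in some families through light chains or adaptors. In axons, kinesins of the KIF5, KIF1 and KIF3 families move vesicles, mitochondria and cytoskeletal proteins away from the cell body. Other members build the spindle and divide the cell, and their genes are transcribed mainly in cycling cells, while others depolymerise microtubules or work in the cilium.

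Replicate 1 of both groups lay on slide 1 and replicate 2 of both on slide 2. The 75th percentile of signal, to which each array was scaled, was 596.3 and 743.7 in shCM1 and 652.2 and 754.5 in shCTL. Levels are therefore log2 signals relative to that percentile, and they compare arrays for 1 probe, not genes with each other. Cmtr1 had levels of -3.46 and -3.53 in shCM1, against -1.43 and -1.86 in shCTL, which put it at 27.7% of shCTL. No gene passed limma without a slide block (0 of 30090 genes, with 900, or 2.99%, at an unadjusted p under 0.05). With the slide as a block, 6.55% of genes passed at an adjusted p under 0.05, 3.00% lower and 3.55% higher in shCM1. With 1 residual degree of freedom per gene, that fit borrows most of its variance estimate from other genes of similar signal. All calls come from it, and standard errors are those without the block unless stated. The median difference over all genes was 0.08, and 0.01 with quantile scaling or the authors' value table. The share of all genes higher on both slides was 43.9%, but 31.5% with quantile scaling and 31.4% with the authors' table. As a check of the labelled cell type, all 7 neuron markers were measured. Their summed linear levels were 254.0 and 187.2 in shCM1 and 273.3 and 207.7 in shCTL. Sums of this kind weigh the brightest probes most, here those of Stmn2 and Tubb3.

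The kinesin genes as a whole were lower in shCM1 more often than higher. Of the 33, 23 were lower and 10 higher, with a median log2 difference of -0.15 (-0.16 on slide 1 and -0.11 on slide 2), beside 0.08 over all genes. They were lower on both slides in 19 genes, beside 22.6% of all genes, and higher on both in 7, beside 43.9%. Both shCM1 arrays lay below both shCTL arrays for 11 genes, beside 10.1% of all genes, and above them for 5, beside 21.5%. Without the block, 0 of the 33 passed limma. In that fit 2 of them, Kif5a and Kif21b, were at an unadjusted p under 0.05, beside 2.99% of all genes. With the block, Kif5a and Kif3c passed in the lower direction, which is 2 of 33 genes (6.06%), beside 3.00% of all genes, and 0 passed in the higher direction. A further 13 of the 33, for 15 in all, had an unadjusted p under 0.05 with the block, where 22.6% of all genes did. In bulk RNA, fewer cells of a type and less RNA per cell cannot be told apart.

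**Figure D1:**
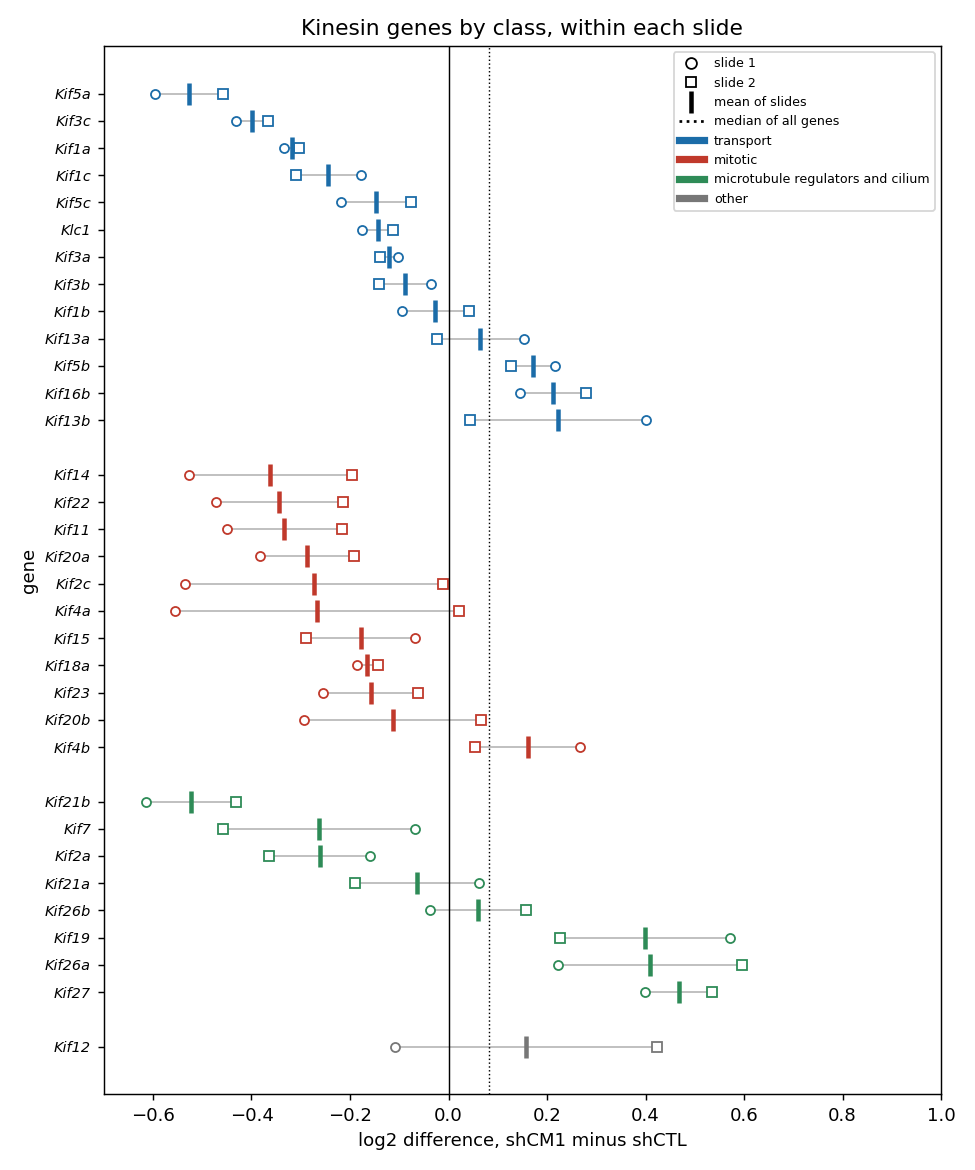
Difference in log2 signal, shCM1 minus shCTL, for each of the 33 kinesin genes, grouped by role. Circles show slide 1, squares slide 2, thick ticks their mean, and the dotted line the median of all genes at 0.08. The range runs from -0.53 for Kif5a to 0.47 for Kif27, and 10 of the 11 mitotic genes lie left of 0, with Kif4b also below 0 (-0.03) under quantile scaling.

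Transport kinesins split, with the neuron-enriched heavy chain Kif5a lower and the broadly expressed Kif5b not lower. Kif5a encodes the heavy chain that moves neurofilaments and other cargo in axons. Its probe and 4 probes of its paralogs Kif5b and Kif5c are shown because the 3 genes are close relatives with unlike values. Each probe's value rests on a single stretch of transcript. The probes are designed 60-base sequences, given 5′ to 3′ with their rn4 positions.
Kif5a, chr7:67190108-67190167, minus strand: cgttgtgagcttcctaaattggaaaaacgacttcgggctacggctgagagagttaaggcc
Kif5b, chr17:59711319-59711660, plus strand: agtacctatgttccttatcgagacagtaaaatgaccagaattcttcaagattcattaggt
Kif5b, chr17:59721370-59722375, plus strand: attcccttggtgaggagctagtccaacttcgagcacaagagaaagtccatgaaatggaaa
Kif5b, chr17:59726315-59726374, plus strand: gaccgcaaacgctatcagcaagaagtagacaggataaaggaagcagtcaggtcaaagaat
Kif5c, chr3:30724856-30724915, plus strand: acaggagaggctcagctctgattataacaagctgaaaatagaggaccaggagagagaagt
The first Kif5b sequence is the gene's brightest probe, with a log2 difference of 0.17, and the next ones gave 0.25 and 0.19. The Kif5c sequence is a dimmer probe of that gene, with a difference of 0.11. The brightest Kif5c probe, with a difference of -0.15, is not shown. Where the span exceeds the probe's length, the probe joins exons.

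Kif5a had levels of -0.38 and -0.50 in shCM1, against 0.21 and -0.04 in shCTL. Both shCM1 arrays were below both shCTL arrays, by -0.60 on slide 1 and -0.46 on slide 2. Kif5a fell to 69.4% of shCTL (log2 difference -0.53, with an SE of 0.18 without and 0.11 with the block). The adjusted p was 0.00599 in limma with the slide block, and over the alternatives to that fit it ran up to 0.256. The call ended with no filter on dim probes (adjusted p = 0.0596) and with no intensity trend in the variance. Kif5b had levels of 4.17 and 4.09 in shCM1, against 3.95 and 3.97 in shCTL. The groups did not overlap, with shCM1 the higher one, and the difference of 0.17 ± 0.13 SE did not pass (adjusted p = 0.219 in limma with the block). Kif5c, the other neuronal heavy chain, had levels of 4.89 and 4.72 in shCM1, against 5.11 and 4.79 in shCTL. Its groups overlapped, with a difference of -0.15 ± 0.16 SE. The difference for Kif5a was below that for Kif5b by -0.70 (-0.81 and -0.58 within slides) and below that for Kif5c by -0.38 on each slide. An exact two-sided permutation test of either gap gave p = 0.333, the smallest that 2 arrays against 2 allow.

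The light chains join the heavy chains to cargo. Klc1 had levels of 5.19 and 5.02 in shCM1, against 5.36 and 5.13 in shCTL. These groups overlapped, and the difference of -0.14 ± 0.15 SE did not pass. Klc2, named here through its probe's description, had levels of 4.76 and 4.59 in shCM1, against 5.20 and 5.01 in shCTL. Both shCM1 arrays were below both shCTL arrays, and Klc2 fell to 74.4% of shCTL (log2 difference -0.43, SE 0.14 without and 0.08 with the block, adjusted p = 0.00207 in limma with the block). Its differences were -0.44 on slide 1 and -0.42 on slide 2, and the call ended only with no intensity trend (adjusted p = 0.257), among the alternatives to the blocked fit.

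The KIF3 chains of kinesin-2, of which KIF3A and KIF3B pair in ciliary and axonal transport, were lower on both slides in the brightest probes of Kif3a, Kif3b and Kif3c, while another Kif3b probe was higher on both slides, at 0.06. Kif3c, whose product is a neuronal partner of KIF3A, had levels of 2.53 and 2.06 in shCM1, against 2.96 and 2.42 in shCTL. The groups overlapped because slide 1 was brighter in each, while shCM1 was the lower array on each slide, by -0.43 and -0.37. Kif3c fell to 75.9% of shCTL (log2 difference -0.40, SE 0.26 without and 0.09 with the block, adjusted p = 0.0101 in limma with the block). The call ended with quantile scaling (adjusted p = 0.0640), the authors' table (0.0774), no filter on dim probes (0.0668) and no intensity trend (0.262). Leaving out 1 array sets slides against each other, and then the Kif3c difference was -0.63 without shCM1 replicate 1, -0.16 without shCM1 replicate 2, -0.13 without shCTL replicate 1 and -0.67 without shCTL replicate 2. Kif3a had levels of 1.59 and 1.46 in shCM1, against 1.69 and 1.60 in shCTL, and Kif3b had 4.57 and 4.46, against 4.61 and 4.60. For both genes the shCM1 arrays were the lower, and their differences of -0.12 and -0.09 did not pass. The gap between Kif3c and Kif3b was -0.31 (-0.40 and -0.23 within slides), and that between Kif3c and Kif3a was -0.28 (-0.33 and -0.23). An exact permutation test, which ignores the slides, gave p = 0.667 for each. With 2 arrays against 2 its smallest p is 0.333, so it cannot decide whether a gap exists. Kif17, a homodimeric kinesin-2 that carries dendritic cargo, had levels of -3.54 and -4.04 in shCM1, against -3.83 and -4.33 in shCTL, with overlapping groups and a difference of 0.29 ± 0.31 SE.

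Kinesin-3 motors carry synaptic vesicle precursors, dense-core vesicles and endosomes. Kif1a, the carrier of synaptic vesicle precursors, had levels of -0.57 and -0.98 in shCM1, against -0.24 and -0.67 in shCTL. It was lower by -0.33 and -0.30 within the slides, and the adjusted p was 0.0950 in limma with the block. Kif1b had levels of 3.55 and 3.59 in shCM1, against 3.64 and 3.55 in shCTL, a difference of -0.03 whose sign turned on slide 2 and, at 0.06, with quantile scaling. Kif1c, which moves dense-core vesicles, differed by -0.24 (-0.18 and -0.31 within slides; adjusted p = 0.0963 with the block). The membrane traffic motors Kif13a, Kif13b and Kif16b had mean differences above 0. Kif13b differed by 0.22 and Kif16b by 0.21, with both shCM1 arrays above both shCTL arrays, and Kif13a by 0.06 with opposite signs on the slides. None of these 6 genes passed limma. Without 1 array, Kif1a ran from -0.53 to -0.10, Kif1c from -0.46 to -0.03 and Kif13b from 0.13 to 0.32. With quantile scaling Kif16b was at 0.054.

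**Figure D2:**
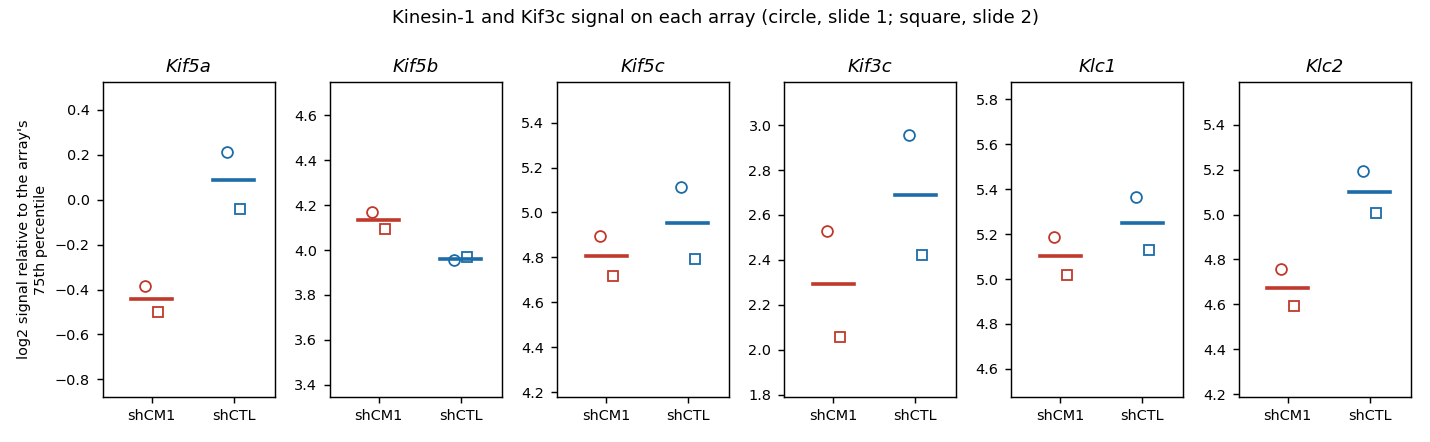
Level of 6 kinesin genes on each array, as log2 signal relative to the array's 75th percentile, with shCM1 left of shCTL. Circles are slide 1, squares slide 2 and bars the group mean. Kif5a and Klc2 separate the groups downward, Kif5b upward, and in Kif3c the groups overlap while the shCM1 array is the lower one on each slide.

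As a class, the 13 transport kinesins had a median difference of -0.12 (-0.10 and -0.11 within slides). Of the 13, 8 were lower on both slides and 3 higher on both, beside 22.6% and 43.9% of all genes. With quantile scaling 7 of the 13 were lower on both and 3 higher on both, beside 30.1% and 31.5% of all genes. The median level was 2.53 and 2.06 in shCM1, against 2.96 and 2.42 in shCTL. On every array the middle gene of the 13 was Kif3c, so these are its levels and do not measure a class shift. The median difference was -0.19 without shCM1 replicate 1, -0.05 without shCM1 replicate 2, -0.07 without shCTL replicate 1 and -0.05 with quantile scaling. For the cell type markers that follow, 3.00% of all genes passed lower and 3.55% higher with the block. Excitatory neuron markers passed in 2 of 6 genes, both lower, with summed linear levels of 24.9 and 23.9 in shCM1, against 30.0 and 28.0 in shCTL. Inhibitory neuron markers passed in 4 of 8 (Gad1, Gad2, Dlx1 and Dlx5), all higher. The 8 gave sums of 280.2 and 154.6 in shCM1, against 237.9 and 147.8 in shCTL. Those sums rest mostly on the bright probes of Sst and Npy, which differed by 0.21 and -0.02 and did not pass. Microglial markers passed in 4 of 8 measured genes, all higher, with sums of 3.02 and 2.28 in shCM1, against 1.96 and 1.65 in shCTL. Astrocyte markers passed in 0 of 7, oligodendrocyte lineage markers in 3 of 7 (2 higher) and endothelial and fibroblast markers in 2 of 8, both higher. The part of these cell types in the kinesin values was not tested.

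Mitotic kinesins were lower in shCM1 in 10 of 11 genes, with a median difference of -0.27, and the exception, Kif4b, was at -0.03 with quantile scaling. That median lay below the transport median of -0.12, but with normexp background correction both medians were -0.15. Genes are not replicates, so the gap between the classes was not tested. The shift was -0.38 on slide 1 and -0.14 on slide 2, and without 1 array the median ran from -0.43 without shCM1 replicate 2 to -0.13 without shCM1 replicate 1. Of the 11, 8 were lower on both slides and 1 higher on both, beside 22.6% and 43.9% of all genes. Both shCM1 arrays lay below both shCTL arrays for 5 (45.5%, beside 10.1% of all genes). None of the 11 passed limma with the block, where 3.00% of all genes passed in the lower direction. In that fit 4 were at an unadjusted p under 0.05, beside 22.6% of all genes. The class medians on the arrays were -2.23 and -1.81 in shCM1, against -1.70 and -1.62 in shCTL. On every array the middle gene was Kif14, which had the largest fall of the 11 (-0.36). These are therefore the levels of Kif14 and do not measure a class shift.

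Kif11, which pushes spindle poles apart, had levels of -3.32 and -3.03 in shCM1, against -2.87 and -2.81 in shCTL. Kif20a, a motor of the dividing cell's midzone, had levels of 0.08 and 0.11 in shCM1, against 0.46 and 0.31 in shCTL. In both genes the groups did not overlap, with differences of -0.33 and -0.29. Kif2c, which depolymerises microtubules at centromeres, had levels of -3.95 and -3.47 in shCM1, against -3.41 and -3.46 in shCTL, and its slide 2 pair nearly coincided. Kif15, which helps keep the spindle bipolar, had levels of -0.68 and -0.58 in shCM1, against -0.62 and -0.29 in shCTL, with overlapping groups. Kif23, a centralspindlin motor of cytokinesis, had levels of -0.82 and -0.91 in shCM1, against -0.57 and -0.85 in shCTL, which also overlapped. The 6 other members ran from -0.36 for Kif14, a motor of cytokinesis, to 0.16 for Kif4b. The chromokinesin Kif22 differed by -0.34, with an adjusted p of 0.0773 in limma with the block. Without 1 array, Kif22 ran from -0.56 to -0.13, Kif14 from -0.57 to -0.15, Kif11 from -0.48 to -0.19 and Kif2c from -0.51 to -0.04. Kif15 ran from -0.34 to -0.02 and Kif23 from -0.30 to -0.02. Kif4a and Kif4b carry related names. Whether their probes share transcripts was not checked, so their values are uncertain.

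Other mitotic proteins were lower along with them. In a list of 16, which holds cyclins, kinases and checkpoint proteins, all 16 were lower, with a median of -0.39 (-0.59 and -0.19 within slides). Of the 16, 15 were lower on both slides, beside 22.6% of all genes. With the block, 8 of the 16 passed in the lower direction, beside 3.00% of all genes, and 0 in the higher. The count was 3 with quantile scaling, 5 with normexp, 1 with the authors' table and 0 with no filter on dim probes or no intensity trend. Without the block 0 passed limma, with 2 at an unadjusted p under 0.05, beside 2.99% of all genes. The kinase Aurka fell by 0.58, Cdk1, which drives entry into mitosis, by 0.51, and its partner Ccnb1 by 0.45. The survivin gene Birc5 fell by 0.44, and Ube2c and Plk1 by 0.40 each, with adjusted p from 0.00374 to 0.0397 in limma with the block. Without shCM1 replicate 1, Cdk1 was at -0.19, Birc5 at -0.17, Ube2c at -0.08 and Plk1 at -0.15. Without shCM1 replicate 2 the same 4 were at -0.83, -0.71, -0.72 and -0.64. Birc5 was also at -0.69 without shCTL replicate 1 and -0.19 without shCTL replicate 2. Among progenitor markers, 6 of 6 had a mean difference above 0, as did 19180 of 30090 genes in all. Hes1 had opposite signs on the slides (-0.63 and 1.16). Nes, the brightest, differed by 0.005 on slide 1 and 0.63 on slide 2. The summed linear levels of the 6 were 37.7 and 44.3 in shCM1 and 36.2 and 31.3 in shCTL. Sox2 and Hes5 passed with the block (33.3%, beside 3.55% of all genes higher). Any part of progenitor number in the mitotic values was not tested.

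**Figure D3:**
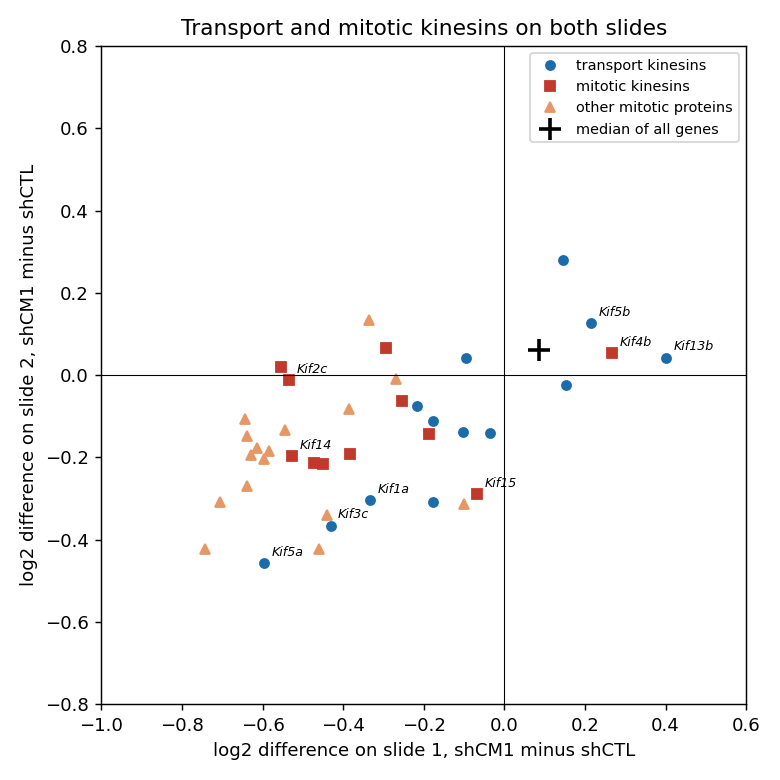
Difference in log2 signal, shCM1 minus shCTL, on slide 1 (horizontal) and slide 2 (vertical) for the transport kinesins, the mitotic kinesins and the other mitotic proteins. The cross marks the median of all genes, at 0.09 and 0.06. The mitotic kinesins have a median of -0.38 on slide 1 and -0.14 on slide 2.

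Promoters of 4 mitotic kinesins that hold CCAAT are shown because most genes of this class lay low together. The Kif4a and Kif20b promoters also held CCAAT and are not shown. The elements searched for are known from cell-cycle genes, the CCAAT box and the cell-cycle homology region (CHR). Searched on both strands were CCAAT and, for the CHR, TTTGAA and TTCGAA, in RefSeq promoters of assembly GRCr8 from 250 bases before to 50 after each start. These promoters matched 25 of the 33 genes, and the mitotic genes Kif14 and Kif4b were not among them. Of 10 promoters of 9 mitotic kinesins, 6 held CCAAT (60.0%), 5 a CHR and 4 both (40.0%). The Kif18a promoter and both Kif2c promoters held neither, and the Kif15 promoter held a CHR alone. Of 13 promoters of 11 transport kinesins, 3 held CCAAT (23.1%) and 0 a CHR. Over 33469 promoters of all genes, 37.5% held CCAAT, 19.7% a CHR and 7.95% both. A match describes the letters only. The sequences are the 130 bases before the start, 5′ to 3′ on the gene's strand, with matches in capitals.
Kif11, chr1:244536737-244536866, plus strand: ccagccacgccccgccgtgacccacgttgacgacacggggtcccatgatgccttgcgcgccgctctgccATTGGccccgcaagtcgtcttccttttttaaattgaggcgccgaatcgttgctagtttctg
Kif20a, chr18:26504292-26504421, plus strand: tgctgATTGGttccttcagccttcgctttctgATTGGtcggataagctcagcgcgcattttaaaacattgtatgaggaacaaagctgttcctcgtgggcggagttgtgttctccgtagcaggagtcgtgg
Kif22, chr1:191080879-191081008, minus strand: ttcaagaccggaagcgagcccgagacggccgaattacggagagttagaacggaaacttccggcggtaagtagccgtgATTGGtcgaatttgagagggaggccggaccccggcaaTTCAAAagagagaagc
Kif23, chr8:71320585-71320714, minus strand: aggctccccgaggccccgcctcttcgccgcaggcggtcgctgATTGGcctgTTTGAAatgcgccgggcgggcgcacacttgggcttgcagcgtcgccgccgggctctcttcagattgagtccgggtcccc

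The 8 members that regulate microtubules or work in the cilium went in both directions, with a median of -0.00. Of these, 3 were lower on both slides and 3 higher on both (37.5% each, beside 22.6% and 43.9% of all genes). None passed limma with the block, where 6.55% of all genes did. Kif21b, a motor that limits microtubule growth, had levels of -3.37 and -3.33 in shCM1, against -2.75 and -2.90 in shCTL. Both shCM1 arrays were lower, by -0.61 and -0.43 within slides. The difference of -0.52 ± 0.20 SE had an adjusted p of 0.0523 in limma with the block, which ran from 0.0384 with quantile scaling to 0.257 with no intensity trend. With normexp background correction the difference was -0.26. Kif2a, a depolymerase that prunes axon branches, had levels of 1.15 and 1.04 in shCM1, against 1.31 and 1.40 in shCTL, a difference of -0.26 ± 0.15 SE without overlap. Kif21a, a relative of Kif21b that also acts on microtubule tips, had levels of 0.99 and 0.95 in shCM1, against 0.93 and 1.14 in shCTL, which overlapped. The Hedgehog regulator Kif7 differed by -0.26. Kif19, which in mice sets the length of motile cilia, and Kif26a, an atypical kinesin that in mice acts in growth factor signalling, differed by 0.40 and 0.41, with both shCM1 arrays above both shCTL arrays, and Kif27, a Kif7 relative needed for motile cilia in mice, by 0.47 with overlapping groups. The values depended on scaling and arrays. Kif27 was at 0.28 with quantile scaling and ran from 0.09 to 0.84 without 1 array, Kif19 was at 0.19 with quantile scaling, and Kif26a ran from 0.22 to 0.60 without 1 array. Kif7 ran from -0.48 to -0.04. Kif26b differed by 0.06, and Kif12, the remaining gene, by 0.16 at signals near background. With quantile scaling these last differences were -0.09 and -0.15.

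Of the 12 genes with more than 1 probe, some gave the same sign on all of their probes and some did not. The 3 Kif5b probes differed by 0.17, 0.19 and 0.25, and the 2 Kif2a probes by -0.26 and -0.24. The 2 Kif16b probes differed by 0.21 and 0.28, and the 2 Kif27 probes by 0.47 and 0.75. The brightest Kif5c probe differed by -0.15 and the others by 0.02 and 0.11, and the Kif18a probes by -0.16 and 0.20. The brightest Kif3b probe differed by -0.09 and the others by 0.06 and -0.03, and the Kif1b probes by -0.03 and 0.07. Kif11 gave -0.33 and -0.12, Kif7 -0.26 and -0.02, and Klc1 -0.14 and -0.07. All 3 Kif13a probes were above 0, from 0.05 to 0.32. Kif5a and Kif3c, which passed, had 1 probe each, so no second probe bears on them.

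**Figure D4:**
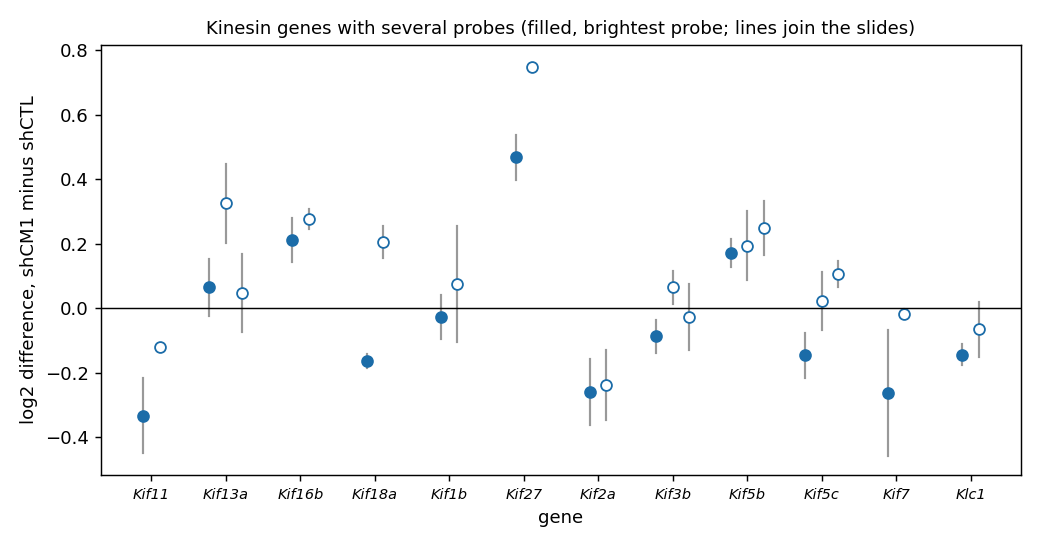
Difference in log2 signal, shCM1 minus shCTL, for each probe of the 12 genes with several. Filled points are the brightest probe, open points the others, and lines join the 2 slides. All 3 Kif5b probes lie above 0, while Kif5c, Kif18a, Kif3b and Kif1b have probes on either side.

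Of 7 other kinesin family genes outside the name rule, with a median of -0.00, 1 passed with the block (14.3%, beside 6.55% of all genes), which was Kifc1. This minus-end-directed spindle motor had levels of 0.47 and 1.32 in shCM1, against 1.02 and 1.64 in shCTL, with overlapping groups, a difference of -0.44, an SE of 0.35 without and 0.10 with the block, and an adjusted p of 0.0130 in limma with the block. The Kifc1 difference was -0.01 without shCM1 replicate 1, -0.86 without shCM1 replicate 2, -0.74 without shCTL replicate 1 and -0.13 without shCTL replicate 2. Its call also ended with quantile scaling, the authors' table, no filter on dim probes and no intensity trend, at adjusted p from 0.0633 to 0.267. Of 21 measured cargo adaptor genes of 22 listed, with a median of 0.05, 0 passed with the block and 4 were at an unadjusted p under 0.05 in that fit, beside 22.6% of all genes. Those 4 were Clstn1, a kinesin-1 cargo linker, at 0.28, Mapk8ip3, a JNK scaffold that binds kinesin-1, at 0.22, Ppfia3, a synaptic scaffold protein, at -0.20, and Arl8b, a lysosomal GTPase, at 0.21. Mapk8ip3 and Arl8b were named after their values were seen.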

How the data were processed

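Gene expression was measured on single-colour Agilent arrays of 4 cultures. The deposited intensity values are linear spot signals. Per the file headers, the scanner software was Agilent Feature Extraction 10.7.3.1, and its processed signal was already background-corrected. The authors' value table, of linear intensity, was used as an alternative only, and how it was scaled is not given in these sources. Outlier-marked spots, 86 to 98 per array, were left out. Replicate spots were averaged per probe, the deposited signals were put on a log2 scale, and each array's 75th percentile was taken off. The filter kept probes well above background on 2 or more arrays, which left 36700 probes of 30090 genes. The arrays had 84.0% to 90.4% of probes well above background, and their number limits the precision. Probes were named through RefSeq assembly GRCr8, with 20285 by accession, 2356 by symbol, 165 by older symbol and 853 by description, and 17353 kept the file's name.

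The comparison of groups used R 4.3.3 and limma 3.58.1, with a two-sided moderated test whose variance prior followed signal. Adjustment over all genes was by Benjamini-Hochberg, at 0.05. The fit was made without a block and again with slide as one. The blocked variance prior held 17.8 degrees of freedom. Replicate number, slide and scan are the same split, per the file headers, and the 2 arrays of a number deviated together from the means of their groups, with a correlation of 0.713 across genes. The labels do not state that a slide holds 1 experiment, so p-values measure the spread between these samples, which may be technical. The method was tested on simulated data. Alternatives were quantile scaling, normexp (offset 50), the authors' table, other filters on dim probes, no trend, every probe, and leaving out each array. Members with array values were set by a rule. It took those past the blocked or unblocked fit and those with both slides of 1 sign and a mean of at least 0.5 in size. It also took a fixed list of transport and mitotic motors with the microtubule regulators Kif2a and Kif21a. Of each related list, members past the blocked fit, at most 6 by size, were named, or the 2 with the smallest p. The members, lists and rules were chosen with earlier results of these data known.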

Additional observations from a re-analysis of the deposited data

How the results depend on the processing

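No kinesin passed limma without the slide block under any scaling, filter or left-out array. With the replicate block, the 2 genes lower in shCM1 were Kif5a and Kif3c, and 2 also passed with quantile scaling (Kif5a and Kif21b), normexp, the filter on all arrays and every probe. The count was 1 with the authors' value table and 0 with no filter on dim probes or no intensity trend, where 374 and 0 of all genes passed, against 1970 in the blocked fit. Among all genes, 927 passed with quantile scaling, 1323 with normexp and 671 with the authors' table. The transport median was -0.052 with quantile scaling, -0.15 with normexp and -0.057 with the authors' table, and -0.19 to -0.049 without 1 array. The median of the microtubule regulators was -0.069, -0.026 and -0.069 under the same 3 settings, and -0.079 to 0.075 without 1 array, where it turned sign without shCM1 replicate 2 (0.075) and without shCTL replicate 1 (0.061). The median of all 33 ran from -0.17 to -0.060 without 1 array. With quantile scaling and the authors' table alike, Kif12 turned to -0.15, Kif1b to 0.059, Kif26b to -0.094 (-0.093 with the authors' table) and Kif4b to -0.026. The share of all genes lower on both slides was 22.6%, and 30.1% with quantile scaling or the authors' table, where 9 of 11 mitotic kinesins were lower on both. Without 1 array, single genes that turned sign ranged from -0.38 to 0.050 for Kif18a, -0.43 to 0.20 for Kif20b, -0.17 to 0.29 for Kif26b, -0.14 to 0.46 for Kif4b, -0.084 to 0.21 for Kif13a, -0.072 to 0.019 for Kif1b, -0.31 to 0.012 for Kif5c, -0.090 to 0.40 for Kif12 and -0.17 to 0.041 for Kif21a. The cause of these changes was not tested, and a filter or left-out array also changes the number of genes or samples. Array number limits all of these values.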

Other observations

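The tracks and the opposing motor were measured as well. Of 24 dynein and dynactin genes, whose complex moves cargo toward the cell body, 1 passed with the slide block (4.17%, beside 6.55% of all genes). Dync1i2, a dynein intermediate chain, had levels of 3.71 and 3.72 in shCM1, against 3.98 and 4.17 in shCTL. Both shCM1 arrays were below both shCTL arrays, with a difference of -0.36 and an adjusted p of 0.0137 in limma with the block. The median of the 24 was -0.04.

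Of 15 measured tubulins and microtubule proteins of 18 listed, 3 passed with the block, all lower in shCM1, beside 3.00% of all genes, with a median over the 15 of -0.10. Tuba4a, an alpha tubulin, fell by 0.55, the neuronal beta tubulin Tubb3 by 0.37 and Mapt, which encodes tau, by 0.46, with adjusted p of 0.0108, 0.00720 and 0.0101 in limma with the block. The 3 differed more on slide 2, at -0.91, -0.47 and -0.78, than on slide 1, at -0.18, -0.26 and -0.15. Without shCM1 replicate 2, Tubb3 was at -0.11 and Mapt at -0.03. Without shCM1 replicate 1 they were at -0.62 and -0.89. Tuba4a was at -0.83 without shCTL replicate 1 and -0.27 without shCTL replicate 2, and Tubb3 was at -0.22 without shCTL replicate 1. These 3 calls and that of Dync1i2 ended with the authors' table, no filter on dim probes and no intensity trend, and all but Tubb3 also with quantile scaling.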
